A study of Mus musculus with 4 samples.

Results

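The neurotrophin and GDNF-family receptors described here were the 8 genes *Ntrk2*, *Ntrk3*, *Ngfr*, *Ret*, *Gfra1*, *Gfra2*, *Gfra3* and *Gfra4*. They were chosen by gene symbol from the gene list of the count matrices, where each symbol stood once among 31053 genes. All 8 had UMIs (unique molecular identifiers, 1 per captured transcript) in the neurons of every library.

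There were 4 single-cell libraries, Male-Sham and Female-Sham after sham surgery and Male-CCI and Female-CCI after nerve injury. Every mouse was heterozygous for PirtEGFPf, an allele in which farnesylated green fluorescent protein takes the place of the *Pirt* reading frame and is driven by the *Pirt* promoter. GFP+ cells were sorted from L4 and L5 dorsal root ganglia (DRGs), so neurons without *Pirt*, which are mainly large NF200+ cells, are under-represented. Mice were 7 to 8 weeks old and were taken on day 7 after bilateral chronic constriction injury (CCI, loose ligatures around the sciatic nerve) or sham surgery. Each library was 1 pool of 20 DRGs from 5 mice of 1 sex, which leaves 2 libraries per surgery. Brothers and sisters of a litter shared 1 kind of surgery, so litter and surgery cannot be told apart. P-values rest on the spread between 2 pools of different sex per surgery, not between mice. The test also moderates this spread with a trend over all genes, so very small p-values do not come from the 2 pools alone.

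On mm10 (GRCm38, GENCODE), *Ntrk2* lies at chr13:58806569-59133970 on the plus strand and *Ntrk3* at chr7:78175959-78738012 on the minus strand. *Ngfr* lies at chr11:95568818-95587735, *Ret* at chr6:118151745-118197718 and *Gfra1* at chr19:58235604-58455909, all on the minus strand. *Gfra2* lies at chr14:70890120-70979838 on the plus strand, *Gfra3* at chr18:34689898-34720387 and *Gfra4* at chr2:131039632-131043088 on the minus strand. UMIs count transcripts from their 3′ ends and sum the isoforms of a gene, of which *Ntrk2* has 7 coding ones in the annotation. For *Ntrk2*, the isoforms with and without a kinase domain are therefore not separated. An antisense gene, *Gm9885*, overlaps *Ntrk3* at chr7:78578830-78581038, and the counting used the default parameters of Cell Ranger.

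Neurotrophins signal through Trk receptor tyrosine kinases and through the p75 receptor. *Ntrk2* encodes TrkB, the receptor of BDNF and NT-4. *Ntrk3* encodes TrkC, the receptor of NT-3, and *Ngfr* encodes p75, which binds every neurotrophin. Ligands of the GDNF family bind a GFR alpha coreceptor held in the membrane by a lipid anchor, and the pair then engages the kinase Ret. GFR alpha 1 prefers GDNF, GFR alpha 2 neurturin, GFR alpha 3 artemin and GFR alpha 4 persephin. In adult DRGs these receptors divide sensory neurons into groups, with *Ret* and *Gfra2* known from non-peptidergic nociceptors and C-fiber low-threshold mechanoreceptors, TrkC from proprioceptors and TrkB from rapidly adapting mechanoreceptors.

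RefSeq promoters (GRCm38.p6, 250 bases before to 50 after the start), matched by symbol, are given for 4 of the 8 genes. Those of the other 4 were not used, which does not mean that RefSeq holds none. The 4 shown are *Gfra1*, *Gfra4*, *Ngfr* and *Ntrk2*. Each was higher or lower after injury in several of the comparisons that follow. The same held for the other 4 receptors, so response to injury does not set the 4 shown apart. Capitals mark motifs found on either strand. The motifs searched were AP-1 (TGANTCA), CRE (TGACGTCA), the GC box (GGGCGG), the E box (CACGTG) and the TATA box (TATAAA), of which AP-1 and CRE letters are bound by factors of the Jun and Atf families that neurons express after axon injury.
Gfra1, chr19:58455349-58455648, minus strand: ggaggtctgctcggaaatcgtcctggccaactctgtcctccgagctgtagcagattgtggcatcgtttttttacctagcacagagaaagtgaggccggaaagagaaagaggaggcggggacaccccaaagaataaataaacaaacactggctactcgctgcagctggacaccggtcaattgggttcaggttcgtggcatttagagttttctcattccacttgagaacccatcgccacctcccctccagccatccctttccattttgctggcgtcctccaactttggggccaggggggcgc
Gfra4, chr2:131042633-131042932, minus strand: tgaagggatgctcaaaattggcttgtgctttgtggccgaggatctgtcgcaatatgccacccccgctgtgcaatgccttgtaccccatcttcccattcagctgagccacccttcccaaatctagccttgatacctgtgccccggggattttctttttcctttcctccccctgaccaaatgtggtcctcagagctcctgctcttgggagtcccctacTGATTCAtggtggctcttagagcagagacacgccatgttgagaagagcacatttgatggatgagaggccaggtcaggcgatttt
Ngfr, chr11:95587649-95587948, minus strand: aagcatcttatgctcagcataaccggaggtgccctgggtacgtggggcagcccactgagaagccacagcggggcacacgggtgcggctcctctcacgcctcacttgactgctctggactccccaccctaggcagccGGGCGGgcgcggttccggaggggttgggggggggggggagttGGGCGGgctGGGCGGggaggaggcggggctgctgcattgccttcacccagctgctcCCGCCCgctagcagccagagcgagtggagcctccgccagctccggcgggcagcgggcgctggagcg
Ntrk2, chr13:58806319-58806618, plus strand: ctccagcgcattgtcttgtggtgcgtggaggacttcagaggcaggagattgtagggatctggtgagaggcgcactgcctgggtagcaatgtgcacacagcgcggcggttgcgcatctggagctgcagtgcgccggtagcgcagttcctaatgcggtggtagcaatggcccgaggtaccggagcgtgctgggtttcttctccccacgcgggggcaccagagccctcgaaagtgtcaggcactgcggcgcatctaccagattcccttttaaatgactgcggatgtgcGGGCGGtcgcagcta
The *Gfra4* promoter shown is the second of its entries and held 1 AP-1 match, at position 217. The first entry, chr2:131043039-131043338, spans the annotated start of the gene, held none of the motifs and is not shown. The *Ngfr* window held 4 GC boxes and the *Ntrk2* window 1. None of the 5 motifs was found in the *Gfra1* window, which says only that these letters are not there. Of 32851 RefSeq promoters of this length, 7.81% held the AP-1 letters, 1.79% CRE, 35.66% the GC box, 7.15% the E box and 13.62% the TATA box.

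After quality filters the libraries held 2947 to 5548 cells, of which 2817 to 5398 were neurons, with a median of 32490 to 56457 UMIs per neuron. The remaining 112 to 190 cells per library were satellite glial cell-like (SGC-like), with medians of 4189 to 5175 UMIs. Clusters were named from marker genes that included none of the 8 receptors, and the receptors were also kept out of the clustering. The 10 classes of neurons were NP1- to NP3-like (non-peptidergic), PEP1-, PEP2-, PEP3/4- and PEP5-like (peptidergic), NF1- and NF2-like (neurofilament-rich), and cLTMR-like (C-fiber low-threshold mechanoreceptor). Clusters led by injury genes (CCI-ind-like) held 1.22% and 2.45% of neurons in the male and female sham libraries and 34.8% and 32.6% in CCI. Pairs of libraries shared 215 to 513 cell barcodes. Of the cells kept, 33 to 395 per library carried a barcode found in another library, and they made up 77.03% and 40.0% of NF1-like cells in the male and female sham libraries and 49.6% and 3.49% in CCI, and 51.3% and 28.7% against 30.1% and 4.14% of NF2-like cells. Results that rest on these classes are therefore also given without such cells.

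*Sprr1a*, a small proline-rich protein that DRG neurons induce after axon injury, marked injured neurons. Neurons were *Sprr1a*+ where its log-normalized UMI value was above 1. They numbered 42 of 3281 (1.28%) and 144 of 5398 (2.67%) in the male and female sham libraries, and 1467 of 2817 (52.1%) and 1789 of 3637 (49.2%) in CCI. Levels are UMI counts of the summed cells scaled to 1000000 (CPM), given as mean ± SD of n = 2 libraries or per library, male first. Levels of different genes are not compared.

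Without injury, each receptor had its own map over the classes. The levels of *Sprr1a*- neurons of the sham libraries are a description with no test, since the classes are clusters of the same cells. *Ntrk2* was highest in NF1-like neurons, at 467.5 ± 2.43 CPM, followed by PEP2-like (178 ± 18.6), PEP5-like (70.0 ± 3.95) and PEP3/4-like neurons (25.0 ± 0.238), with no overlap of libraries between these 4 neighbours. The lowest 4 classes for *Ntrk2*, NF2-, NP1-, NP3- and NP2-like, lay at 4.41 to 5.56 CPM, and neighbours among them overlapped. *Ntrk2* was higher still in SGC-like cells, at 922 and 833 CPM, where truncated TrkB is a known glial transcript. Of SGC-like cells in the sham libraries, 97.9% and 92.0% had a *Ntrk2* UMI, at a median depth well below that of the neurons. In the same sham neurons 8 SGC markers summed to 3823 and 2879 CPM in the PEP2-like class and 4019 and 4482 CPM in the PEP5-like class. The sums were 2819 and 3119 CPM in PEP3/4-like neurons, against 67.8 and 173 CPM in NF1-like neurons. The part of glial RNA in these *Ntrk2* levels was not tested.

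*Ntrk3* was likewise highest in NF1-like neurons (320 ± 27.7 CPM). Among other genes, the markers of this class include *Pvalb* and *Runx3*, known from proprioceptors, while the study names its NF1 and NF2 clusters Aβ low-threshold mechanoreceptors. Whether the class holds both kinds was not tested. For *Ntrk3* it was followed by cLTMR-like (168 ± 2.18), NF2-like (127.5 ± 10.1) and PEP5-like neurons (100.4 ± 11.3), each apart from the next. NP2-like neurons came next at 14.2 ± 0.879 CPM, and PEP1-like neurons were lowest at 0.626 ± 0.0894. The gene whose class pattern was most like that of *Ntrk3* was its antisense neighbour *Gm9885* (r = 0.97 of log2(CPM + 1) over 10 classes among 8125 genes), followed by *Stau2* and *Ppm1e* (both r = 0.96). These r values describe 10 points that share libraries and carry no test.

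*Ngfr* was highest in NF2-like neurons (773 ± 50.7 CPM), above PEP1-like (334 ± 13.6), PEP2-like (321 ± 2.43) and NF1-like neurons (241 ± 11.1). It was nearly missing from NP2-like neurons (1.80 ± 0.0378) and low in PEP5-like (5.30 ± 0.773) and NP1-like neurons (9.54 ± 3.21). Those 3 classes lay apart from one another and from every class above them. *Ngfr* thus spanned 430-fold between its highest and lowest class. Its closest pattern was that of *Slc41a2* (r = 0.94).

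The signalling receptor *Ret* reached every class. cLTMR-like (383 ± 19.7 CPM) and NP2-like neurons (379 ± 6.37) overlapped at the top, and NP3-like (270 ± 19.7), PEP2-like (205 ± 2.98) and PEP3/4-like neurons (155 ± 0.970) followed, each apart from the next. NF2-like neurons were lowest at 22.5 ± 0.778. NP1-like neurons had the widest spread between libraries, 99.4 CPM in Male-Sham and 161 CPM in Female-Sham, and overlapped both PEP1-like and NF1-like neurons.

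The 3 coreceptors *Gfra1*, *Gfra2* and *Gfra3* marked different classes. *Gfra1* peaked in NP3-like neurons (158 ± 8.23 CPM), with NF1-like neurons next at 50.02 ± 11.6 and NP2-like at 28.4 ± 0.202, and it was lowest in PEP5-like (1.40 ± 0.538) and cLTMR-like neurons (0.465 ± 0.152). *Gfra2* was high in cLTMR-like (450.5 ± 3.32) and NP2-like neurons (333 ± 4.48), and intermediate in NF1-like (46.0 ± 0.845) and PEP5-like neurons (39.3 ± 5.17). The other 6 classes lay at 3.95 to 6.38 CPM of *Gfra2*, and neighbours among them overlapped. *Gfra3* was a coreceptor of the peptidergic classes, at 308 ± 1.37 in PEP2-like neurons and 287 ± 0.961 and 282 ± 8.21 in PEP1- and PEP3/4-like neurons, which overlapped. PEP5-like neurons had 177 ± 17.2 CPM of *Gfra3*, NP1-like 125 ± 6.98 and NP3-like 51.5 ± 3.003, whereas cLTMR-like neurons were lowest at 2.18 ± 0.204.

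*Gfra4* was the flattest of the 8. Its highest class, PEP2-like, had 66.8 ± 5.38 CPM and its lowest, NP1-like, 15.5 ± 4.35, a ratio of 4.30, against 17.1 for *Ret* and 511 for *Ntrk3*. PEP5-, PEP3/4-, cLTMR- and NF2-like neurons overlapped their neighbours in the order between 47.1 and 55.2 CPM. The 3 patterns most like that of *Gfra4* were those of *Jdp2* (r = 0.98), *Pnck* and *Ddah2* (both r = 0.96). The class with the highest level was the same in 4 other clusterings for all 8 receptors.

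**Figure D1:**
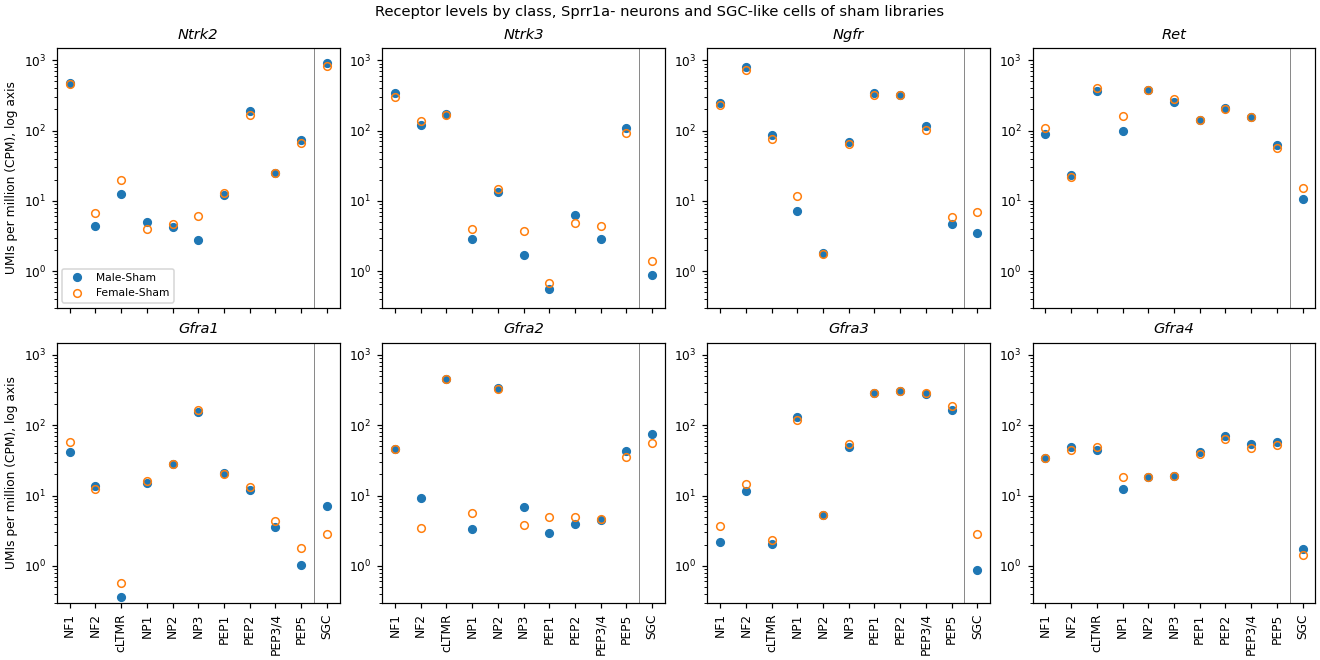
Level of each receptor (CPM, log axis) in Sprr1a- neurons of the 10 classes and in SGC-like cells, with 1 filled point for Male-Sham and 1 open point for Female-Sham. The 2 points of a class lie close together at high levels. Ntrk2 is highest in SGC-like cells, and Gfra4 varies least between classes of neurons.

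The share of neurons with a UMI followed these levels and the depth of the cells. In Male-Sham, 92.6% (95% exact interval 91.6 to 93.5%) of neurons had a *Ret* UMI, 74.7% (73.2 to 76.2%) a *Gfra4* UMI and 34.6% (33.0 to 36.3%) a *Gfra1* UMI. In Female-Sham the shares were 90.8% (89.99 to 91.6%), 66.6% (65.4 to 67.9%) and 29.1% (27.9 to 30.4%). Thinned to 5000 UMIs per cell, which left out 76 and 95 shallower neurons, the shares were 57.1% and 56.7% for *Ret*, 20.4% and 19.0% for *Gfra4* and 8.36% and 8.15% for *Gfra1*. SGC-like cells, which stand for free RNA here, had a *Ret* UMI in 6.32% and 7.33% of cells and a *Gfra4* UMI in 1.05% and 0.667%. Intervals cover counting error only.

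*Ret* and its coreceptors were usually found in the same cell. Of *Sprr1a*- sham neurons with a *Gfra1* UMI, 97.3% in Male-Sham and 95.9% in Female-Sham also had a *Ret* UMI, against 90% and 88.4% of the neurons without one. With *Gfra2* the shares were 94.8% and 94.8% against 90.8% and 87.9%. With *Gfra3* they were 92.9% and 89.6% against 91.8% and 92.6%, so the order differed between the libraries. At 5000 UMIs per cell, *Ret* was found in 76.3% and 76.7% of neurons with *Gfra2* against 49.8% and 49.5% of the rest, and in 63.8% and 64.2% of neurons with *Gfra1* against 56.1% and 55.5%. For *Gfra3* over all neurons it was found in 50.6% and 49.6% against 61.2% and 61.9% of the rest. These shares pool classes, and within the 3 classes richest in *Gfra3* the order was the other way. There *Ret* was found in 53.1% and 49.7% of PEP1-like neurons with *Gfra3* against 41.5% and 40% of the rest, in 57.6% and 57.4% against 51.7% and 55.2% of PEP2-like neurons, and in 55.5% and 53.9% against 48.9% and 46.7% of PEP3/4-like neurons.

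The first comparison asked how the receptors differed between CCI and sham over all neurons. *Gfra1* rose, *Gfra2*, *Gfra4* and *Ntrk2* fell, and the 4 others were not called. A gene was called where the adjusted p of edgeR's quasi-likelihood test (Benjamini-Hochberg over all genes tested) lay under 0.05 and its log2 fold change was beyond 0.5 in either direction. With 4 of 8 called, the receptors stood beside 27.8% of all 17232 genes tested. The mix of classes also differed between surgeries, for example NP2-like neurons, which were 14.0% and 10.9% of neurons in sham and 5.18% and 4.65% in CCI.

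*Gfra1*, the GDNF coreceptor, was at 26.6 and 24.9 CPM in sham and at 61.5 and 47.9 CPM in CCI. Both CCI libraries lay above both sham libraries, and the log2 fold change was 1.14 ± 0.13 (SE, adjusted p = 0.00219). *Gfra2*, the neurturin coreceptor, was at 129 and 122 CPM in sham and at 42.04 and 49.3 CPM in CCI, a log2 fold change of -1.40 ± 0.08 (adjusted p = 3.53e-05). *Gfra4* was at 39.2 and 39.0 CPM in sham and at 18.7 and 18.6 CPM in CCI. The libraries of a surgery were nearly equal for *Gfra4*, and its log2 fold change was -1.01 ± 0.04 (adjusted p = 1.31e-05).

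*Ntrk2* was at 60.5 and 52.6 CPM in sham and at 30.8 and 25.1 CPM in CCI, a log2 fold change of -0.96 ± 0.12 (adjusted p = 0.00226). Without cells of shared barcodes it was -0.57 (adjusted p = 0.0390). The summed level of 8 SGC markers in the neurons was 1397 and 1729 CPM in sham and 944 and 1149 CPM in CCI, none of them at 0 in any library. *Ntrk2* is abundant in SGC-like cells, and the part of glial RNA in its difference was not tested. *Ret* (log2 0.12), *Gfra3* (0.32), *Ngfr* (-0.35) and *Ntrk3* (-0.31) did not pass the limit on fold change. *Ret* did not pass the limit on adjusted p either (0.0841).

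The second comparison set *Sprr1a*+ against *Sprr1a*- neurons of the same CCI libraries, with the library as a block. The difference was larger than between surgeries, and 7 of the 8 receptors were called (2 rose and 5 fell) beside 45.6% of 16240 genes. CCI-ind-like clusters held 64.8% and 63.6% of the *Sprr1a*+ neurons, so the 2 states also differ in class. TMM scaling put the fitted log2 values 0.17 above plain CPM ratios here, and 0.21 to 0.27 above them in injured PEP5-, NF1- and NF2-like neurons set against sham. Within CCI libraries that shift was 0.10 to 0.32 by class.

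*Gfra2* was at 87.0 and 94.7 CPM in *Sprr1a*- neurons and at 3.94 and 4.73 CPM in *Sprr1a*+ neurons, a log2 difference of -4.22 ± 0.05 (adjusted p = 1.59e-12). With any *Sprr1a* UMI as the limit it was -0.96. *Ntrk2* was at 51.9 and 38.7 CPM against 13.0 and 11.8 CPM (log2 -1.69 ± 0.07, adjusted p = 5.56e-07). *Ngfr* was at 175 and 184 CPM against 58.8 and 58.7 CPM (log2 -1.44 ± 0.03, adjusted p = 9.17e-11). The pan-neurotrophin receptor was thus lower over all injured neurons, although the sign differed by class, as given further on. *Gfra4* (log2 -1.03 ± 0.07) and *Ntrk3* (-0.77 ± 0.05) fell as well, and *Ntrk3* was not called without cells of shared barcodes (-0.54, adjusted p = 0.131).

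*Gfra1* was at 33.0 and 32.2 CPM in *Sprr1a*- and at 85.7 and 63.3 CPM in *Sprr1a*+ neurons, a log2 difference of 1.35 ± 0.15 (adjusted p = 0.0161). Of the 7548 and 5100 *Gfra1* UMIs of *Sprr1a*+ neurons, 2097 and 937 came from 55 and 32 NF1-like cells. The largest CCI-ind-like cluster, led by *Anxa1* and given further on, had a *Gfra1* level close to that of *Sprr1a*- neurons. *Ret* was at 193 and 209 CPM against 270 and 249 CPM, with a fitted log2 difference of 0.54 ± 0.07 (adjusted p = 0.00299) and plain CPM ratios of 0.48 and 0.25 on the log2 scale. *Gfra3* was higher in *Sprr1a*+ neurons by 0.46 ± 0.03 (adjusted p = 1.01e-06) and missed the limit on fold change. When any *Sprr1a* UMI made a neuron positive, 3 of 8 were called, *Gfra1*, *Gfra2* and *Gfra4*, beside 4760 of 16207 genes.

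**Figure D2:**
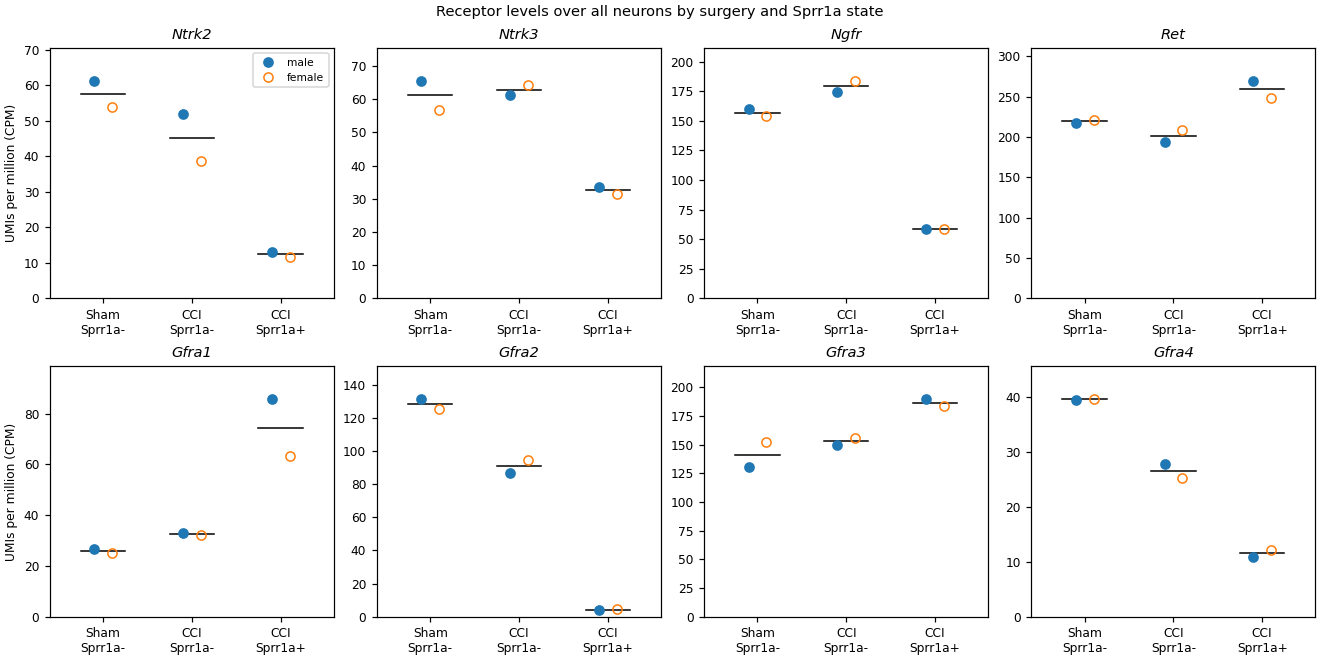
Level of each receptor (CPM) over all neurons by surgery and Sprr1a state, with 1 filled point per male and 1 open point per female library and a bar at their mean. Gfra2 is at 3.94 and 4.73 CPM in Sprr1a+ neurons, below every other group, and Gfra1 is highest there.

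In CCI, 4 classes kept enough *Sprr1a*+ neurons to compare injured neurons of CCI with *Sprr1a*- neurons of sham within a class, NP1-, PEP5-, NF1- and NF2-like. The coreceptors were called in most of them. *Gfra1* and *Gfra3* rose in 4 of 4 classes, *Gfra2* fell in 4 of 4, *Ret* rose in 3 and *Gfra4* fell in 3. *Ngfr* rose in the 2 classes where it was low in sham and fell in the 2 where it was high. In all, 26 of 32 tests were called, 13 in each direction. By class these were 4 of 8 in NP1-like neurons beside 41.6% of all genes tested, 8 of 8 in PEP5-like beside 46.3%, 7 of 8 in NF1-like beside 45.5% and 7 of 8 in NF2-like neurons beside 43.3%.

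The classes themselves changed with injury. Of 10 class markers, 10 fell in *Sprr1a*+ NP1-like neurons and 10 in PEP5-like neurons, 6 fell and 1 rose in NF1-like neurons, and 7 fell and 3 rose in NF2-like neurons. In PEP5-like neurons, 434 of 834 *Sprr1a*- sham cells lay in 1 cluster and 299 of 311 *Sprr1a*+ CCI cells in another. The part of these shifts in the receptor differences was not tested. Where the 8 receptors took part in the clustering, too few *Sprr1a*+ neurons lay in the NP1- and PEP5-like classes to be fitted. The calls in injured neurons of these classes thus have no counterpart there. The same held for *Sprr1a*+ NP1-like neurons at resolution 1.2. With the receptors in the clustering, 13 of the remaining 16 tests were called, beside 5504 of 12103 genes in the NF1-like class and 5115 of 11744 in the NF2-like class.

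*Gfra1* was the receptor with the widest rise. In PEP5-like neurons it was at 1.02 and 1.78 CPM (9 and 21 UMIs) in sham and at 52.9 and 36.0 CPM (383 and 220 UMIs) in *Sprr1a*+ CCI neurons, a log2 fold change of 5.23 ± 0.25 (adjusted p = 2.06e-10). In NF1-like neurons it went from 41.8 and 58.2 CPM to 465 and 551 CPM (log2 3.67 ± 0.15, adjusted p = 2.33e-07). In NF2-like neurons it went from 13.7 and 12.5 CPM to 204 and 150 CPM (log2 3.99 ± 0.19, adjusted p = 4.37e-07). No injured library overlapped a sham library in any of these classes. In NP1-like neurons *Gfra1* was at 15.0 and 16.1 CPM in sham and at 131 and 126 CPM after injury (log2 3.11 ± 0.14, adjusted p = 7.82e-28). For comparison, NP3-like neurons, where *Gfra1* was highest in sham, had 152 and 164 CPM.

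The rise of *Gfra1* was also seen in the share of cells with a UMI. In PEP5-like neurons 2.65% (1.1504 to 5.15%) and 3.57% (2.16 to 5.52%) of *Sprr1a*- sham neurons had a *Gfra1* UMI, against 59.6% (51.3 to 67.5%) and 50.6% (42.6 to 58.6%) of *Sprr1a*+ CCI neurons. Thinned to 5000 UMIs these were 0.699% and 1.14% against 22.5% and 14.6%, and SGC-like cells of the CCI libraries had a *Gfra1* UMI in 6.15% and 5.36% of cells. In NF2-like neurons the shares were 21.8% and 22.3% in sham against 93.7% and 80.5% after injury, and 4.05% and 6.67% against 62.0% and 42.1% when thinned. In NF1-like neurons most sham cells already had a UMI (83.8% and 81.8%), and the thinned shares were 19.4% and 27.4% against 84.3% and 90.3%.

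*Ret* rose with its coreceptor in the 3 classes where it was lowest in sham. NF2-like neurons had 23.0 and 21.9 CPM of *Ret* in sham and 192 and 171 CPM after injury (log2 3.25 ± 0.12, adjusted p = 1.19e-08). NF1-like neurons had 89.3 and 111 CPM against 260 and 265 CPM (log2 1.72 ± 0.10, adjusted p = 1.97e-08), and PEP5-like neurons 62.6 and 57.0 CPM against 137 and 135 CPM (log2 1.48 ± 0.08, adjusted p = 9.34e-17). In all 3 the injured libraries lay above the sham libraries. In NP1-like neurons *Ret* was at 99.4 and 161 CPM in sham and at 363 and 316 CPM after injury, and the log2 difference of 1.45 ± 0.33 was not called (adjusted p = 0.0628). Of injured NF2-like neurons with a *Gfra1* UMI, 97.3% and 95.2% also had a *Ret* UMI, as did 80% and 100% of the few neurons without one.

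*Gfra3*, the artemin coreceptor, rose both where it was abundant and where it was scarce. In PEP5-like neurons it was at 164 and 189 CPM in sham and at 383 and 373 CPM after injury (log2 1.39 ± 0.08). In NP1-like neurons it was at 130 and 120 CPM against 390 and 352 CPM (log2 1.63 ± 0.10). In NF2-like neurons it was at 11.5 and 14.6 CPM against 53.4 and 37.3 CPM (log2 2.06 ± 0.22), and in NF1-like neurons at 2.16 and 3.69 CPM against 19.7 and 21.2 CPM (log2 3.14 ± 0.27). Adjusted p was 5.34e-05 or lower in the 4 classes. Groups did not overlap in any of them.

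*Gfra2* and *Gfra4* went the other way. *Gfra2* was at 42.9 and 35.6 CPM in PEP5-like neurons of sham and at 2.21 and 4.58 CPM after injury (log2 -3.26 ± 0.20, adjusted p = 7.65e-14), and at 45.4 and 46.6 CPM against 3.99 and 1.18 CPM (18 and 2 UMIs) in NF1-like neurons (log2 -3.51 ± 0.25, adjusted p = 9.06e-08). In NP1- and NF2-like neurons *Gfra2* was low already in sham (4.55 ± 1.66 and 6.38 ± 4.13 CPM), and its log2 changes of -1.28 ± 0.44 and -2.36 ± 0.79 (adjusted p = 0.0118 and 0.0395) rest on 2 to 14 UMIs per injured library. The NP1-like call was lost under DESeq2 (adjusted p up to 0.225 over the alternatives), without Female-Sham and without Female-CCI, and the NF2-like call without Male-Sham and with the receptors in the clustering. *Gfra4* was at 57.5 and 52.9 CPM against 9.12 and 9.31 CPM in PEP5-like neurons (log2 -2.28 ± 0.13, adjusted p = 7.92e-17), and fell by 1.45 ± 0.21 in NF1-like neurons and by 1.83 ± 0.16 in the NF2-like class on the log2 scale. In NP1-like neurons, its lowest class, *Gfra4* was at 12.5 and 18.6 CPM against 12.04 and 10.9 CPM and was not called (log2 -0.35 ± 0.22, adjusted p = 0.186).

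*Ngfr* moved in opposite directions. In NP1-like neurons it was at 7.27 and 11.8 CPM in sham and at 53.0 and 55.7 CPM after injury (log2 2.62 ± 0.18, adjusted p = 5.99e-19), and in PEP5-like neurons at 4.75 and 5.85 CPM against 32.3 and 35.3 CPM (log2 2.95 ± 0.15, adjusted p = 1.26e-17). In NF1-like neurons it was at 249 and 233 CPM against 71.0 and 67.0 CPM (log2 -1.47 ± 0.10, adjusted p = 3.62e-08), and in the NF2-like class at 809 and 737 CPM against 161 and 158 CPM (log2 -2.05 ± 0.09, adjusted p = 3.42e-08). Between sham neurons of NP1- and NF2-like classes the mean level differed from 9.54 to 773 CPM, and between their injured neurons from 54.3 to 159 CPM. The difference between classes in the response was not tested.

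The Trk receptors *Ntrk2* and *Ntrk3* fell in 2 of 4 classes each. *Ntrk2* was at 469 and 466 CPM in NF1-like neurons of sham and at 69.5 and 31.7 CPM after injury, a log2 fold change of -2.73 ± 0.34 (adjusted p = 0.00865). This call was lost with sex as a block and without either sham library (adjusted p up to 0.188), while the log2 change was between -3.59 and -1.03 in every alternative. The SGC markers summed to 67.8 and 173 CPM in NF1-like sham neurons and to 161 and 80.5 CPM in the injured ones, with 1 of the 8 at 0 in Female-CCI. In PEP5-like neurons *Ntrk2* was at 72.8 and 67.2 CPM against 28.7 and 36.1 CPM (log2 -0.82 ± 0.10, adjusted p = 1.48e-08). There the SGC marker sum was 4019 and 4482 CPM in sham against 1411 and 1806 CPM after injury, and its part in the difference was not tested.

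*Ntrk3* was at 120 and 135 CPM in NF2-like neurons of sham and at 23.2 and 27.1 CPM after injury (log2 -2.12 ± 0.12, adjusted p = 2.02e-07). In PEP5-like neurons it was at 108 and 92.4 CPM against 44.9 and 40.7 CPM (log2 -0.92 ± 0.09, adjusted p = 9.535e-11). In NF1-like neurons, its highest class, *Ntrk3* was at 340 and 301 CPM against 189 and 237 CPM and was not called (log2 -0.29 ± 0.10, adjusted p = 0.0315). Without cells of shared barcodes, all 14 calls in NF1- and NF2-like neurons were made again, with log2 changes of 3.66 and 4.46 for *Gfra1*, 1.96 and 3.66 for *Ret*, -1.13 and -2.02 for *Ngfr*, -2.41 for *Ntrk2* in NF1-like and -2.28 for *Ntrk3* in NF2-like neurons.

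**Figure D3:**
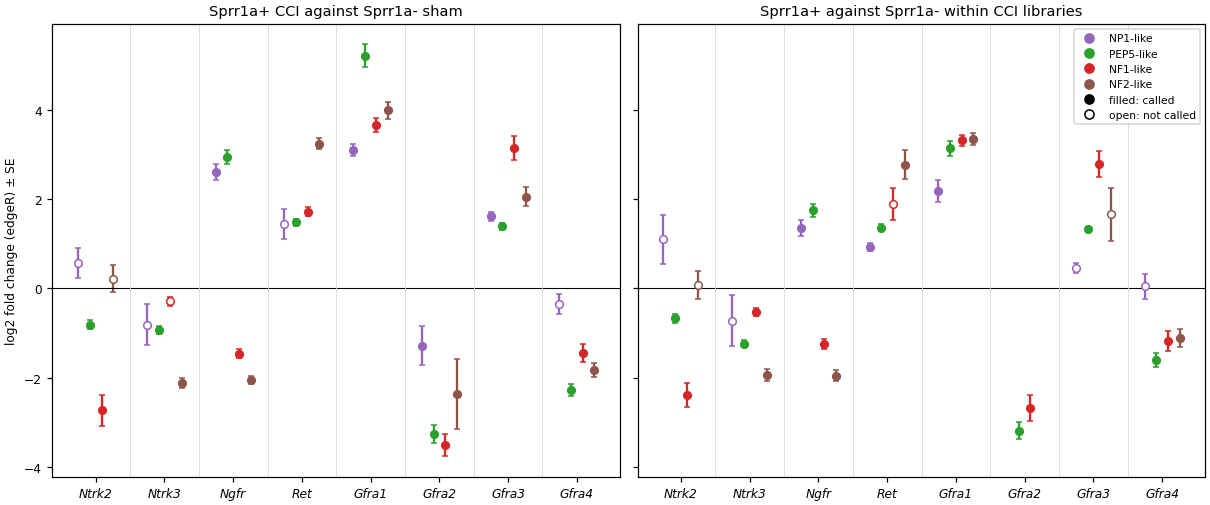
Fitted log2 fold change (edgeR, ± SE) of each receptor in Sprr1a+ CCI neurons against Sprr1a- sham neurons (left) and against Sprr1a- neurons of the same CCI libraries (right), by class. Filled points were called and open points were not, and Gfra2 was not tested in NP1- and NF2-like neurons on the right. Gfra1 lies above 2 in every class of both panels, and Ngfr lies above 0 in NP1- and PEP5-like neurons and below 0 in NF1- and NF2-like neurons.

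Within the CCI libraries, *Sprr1a*+ and *Sprr1a*- neurons of the same class were compared with the library as a block. Both comparisons use the same *Sprr1a*+ neurons, so their values are given side by side and not as independent support. Of 30 tests, 23 were called, 11 up and 12 down. NP1-like neurons had 3 of 7 beside 23.2% of all genes, PEP5-like 8 of 8 beside 43.2%, NF1-like 7 of 8 beside 43.8% and NF2-like 5 of 7 beside 35%. *Gfra1* was higher in injured neurons on the log2 scale, by 2.19 ± 0.25 and 3.14 ± 0.16 in the NP1- and PEP5-like classes and by 3.32 ± 0.12 and 3.36 ± 0.14 in the NF1- and NF2-like classes. *Ret* was higher by 0.93 ± 0.09 in NP1-like, 1.37 ± 0.08 in PEP5-like and 2.78 ± 0.32 in NF2-like neurons. In NF1-like neurons *Ret* differed by 1.89 ± 0.37 and was not called (adjusted p = 0.0806), but was called without cells of shared barcodes (2.18, adjusted p = 0.000255).

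*Ngfr* again differed by class within these libraries, by 1.36 ± 0.18 and 1.76 ± 0.15 in the NP1- and PEP5-like classes and by -1.24 ± 0.11 and -1.96 ± 0.12 in the NF1- and NF2-like classes. Adjusted p was 0.000239 or lower in the 4 classes. *Ntrk2* was lower in NF1-like (-2.39 ± 0.27, adjusted p = 0.00527) and PEP5-like neurons (-0.67 ± 0.10), and *Ntrk3* in NF2-like (-1.95 ± 0.14), PEP5-like (-1.24 ± 0.09) and NF1-like neurons (-0.53 ± 0.10). *Gfra3* was called in 2 of 4 classes, PEP5-like (1.32 ± 0.06) and NF1-like (2.79 ± 0.29), and not in NP1-like (0.46 ± 0.12, adjusted p = 0.0170) or NF2-like neurons (1.66 ± 0.60, adjusted p = 0.202). *Gfra4* was lower in 3 of 4 classes, by 1.11 to 1.60 on the log2 scale. Its calls in NF1- and NF2-like neurons were lost under DESeq2, and the NF2-like call also with any *Sprr1a* UMI as the limit. When any *Sprr1a* UMI made a neuron positive, 15 of 29 tests were called, and the calls over all genes fell to 785 of 10147 in NF1-like, 475 of 11215 in NF2-like and 3158 of 12000 in PEP5-like neurons, with 2710 of 10838 in NP1-like neurons. Of the 7 calls in NF1-like neurons *Gfra1* and *Gfra4* were kept.

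*Sprr1a*- neurons of CCI libraries, called spared here, share the ganglion with injured neurons, and they were compared with *Sprr1a*- neurons of sham in all 10 classes. Here 18 of 78 tests were called, 7 up and 11 down. *Gfra4* accounted for 6 of the 11 falls and *Gfra1* for 3 of the 7 rises, and *Ret* was not called in any of the 10 classes, with log2 values between -0.19 and 0.51. With sex as a block 27 tests were called, the 18 and 9 more. Calls over all genes also rose in the classes of the 9, from 387 to 737 in NP1-like, 543 to 648 in NP2-like and 321 to 452 in NP3-like neurons. They went from 705 to 839 in PEP1-like, 483 to 556 in PEP3/4-like and 207 to 546 in NF2-like neurons. The 9 were *Gfra1* in NP1-, NF2- and PEP3/4-like, *Gfra2* in NP3-, PEP1- and NF2-like, *Gfra3* in NP2-like, *Ntrk2* in NP3-like and *Ret* in NP1-like neurons (0.54 ± 0.13, adjusted p = 0.00298). *Ret* was also called in NP1-like neurons without Female-Sham, and in NF2-like neurons without Male-CCI and with a *Sprr1a* limit of 2. *Gfra4* fell in PEP1-like neurons (log2 -0.69 ± 0.10, 3 of 8 receptors called beside 5.33% of all genes), PEP2-like (-0.71 ± 0.09, 2 of 8 beside 4.47%), PEP3/4-like (-0.68 ± 0.12, 2 of 8 beside 3.6%), PEP5-like (-0.69 ± 0.11, 3 of 8 beside 3.63%), NF2-like (-0.72 ± 0.14, 1 of 8 beside 1.84%) and cLTMR-like neurons (-0.59 ± 0.09, 1 of 8 beside 1.71%). In the 4 classes where it was not called, *Gfra4* lay between -0.40 and -0.23.

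In PEP2-like neurons, for example, *Gfra4* was at 70.6 and 63.0 CPM in sham and at 44.3 and 37.1 CPM in CCI (adjusted p = 5.51e-06). CCI libraries lay below sham libraries in each of the 6 classes. The call in NF2-like neurons was lost without cells of shared barcodes (adjusted p = 0.0985), with any *Sprr1a* UMI as the limit and without either sham library. In PEP3/4-, PEP5- and cLTMR-like neurons it was lost without Female-CCI, and in cLTMR-like also without Female-Sham. In PEP1- and PEP2-like neurons the *Gfra4* call was made in all 16 alternatives.

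*Gfra1* rose in the spared neurons of 3 peptidergic classes. In PEP2-like neurons it was at 12.01 and 13.4 CPM in sham and at 28.7 CPM in both CCI libraries (log2 1.17 ± 0.14, adjusted p = 7.64e-07). In PEP1-like neurons it was at 20.9 and 20.3 CPM against 29.5 and 41.2 CPM (log2 0.80 ± 0.13, adjusted p = 0.00370). In PEP5-like neurons it was at 1.02 and 1.78 CPM against 5.18 and 7.31 CPM, with 26 and 37 UMIs in the CCI libraries (log2 2.07 ± 0.34, adjusted p = 0.000990), a call lost without Female-CCI. CCI lay above sham in both sexes in these 3 classes. NP3-like neurons, where *Gfra1* was highest, had 152 and 164 CPM in sham and 174 and 160 CPM in CCI (log2 0.04 ± 0.09), and the libraries overlapped.

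*Ngfr* rose in NP1-like neurons without *Sprr1a* (log2 1.24 ± 0.30, adjusted p = 0.0199), and so did *Gfra3* (1.17 ± 0.14, adjusted p = 4.02e-05), which makes 2 of 6 tested beside 3.97% of all genes. *Ngfr* was at 7.27 and 11.8 CPM in sham and at 18.1 and 26.2 CPM in CCI, which is 32 and 46 UMIs. This call was lost in 6 of 15 alternatives, among them the fit without shared barcodes (adjusted p = 0.345). *Gfra3* in these neurons was at 130 and 120 CPM against 252 and 314 CPM, and its call was lost in 3 of 16 alternatives, any *Sprr1a* UMI as the limit, resolution 1.2 and the receptors in the clustering (adjusted p up to 0.835). *Ngfr* also rose in PEP5-like neurons (1.201 ± 0.25, adjusted p = 0.00546), from 4.75 and 5.85 CPM to 9.16 and 16.0 CPM, which was lost without Female-CCI and had the opposite sign with doublets kept. In NP3-like neurons *Gfra3* rose by 0.61 ± 0.11 (1 of 8 beside 2.74%), from 49.3 and 53.6 CPM to 73.4 and 89.6 CPM, a call lost without Female-CCI, with injury genes out of the clustering and with doublets kept.

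*Gfra2* fell in spared PEP3/4-like neurons (log2 -1.02 ± 0.20, adjusted p = 0.00481, lost without Female-CCI) and in NF1-like neurons (-0.84 ± 0.11, adjusted p = 0.00255, 1 of 8 beside 1.11%). In NF1-like neurons it was at 45.4 and 46.6 CPM in sham and at 25.5 and 24.1 CPM in CCI. It was not called without cells of shared barcodes (-1.28, adjusted p = 0.710), when 2 of all genes were called in that class. *Gfra2* also lost this call with any *Sprr1a* UMI as the limit, when 6 of 11469 genes were called. In cLTMR- and NP2-like neurons, which held most *Gfra2*, it was at 453 and 448 CPM against 409 and 410.0 CPM and at 336 and 330.1 CPM against 284 and 280.2 CPM. The log2 differences there were -0.19 ± 0.06 and -0.26 ± 0.06, under the limit on fold change.

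In NP2-like neurons *Ntrk2* and *Ntrk3* fell (log2 -0.74 ± 0.20 and -0.73 ± 0.16, 2 of 8 beside 4.34%) at low levels, from 4.41 ± 0.310 to 2.68 ± 0.184 CPM and from 14.2 ± 0.879 to 8.73 ± 2.61 CPM. Both calls were lost without Male-CCI and with any *Sprr1a* UMI as the limit, and that of *Ntrk2* also under DESeq2 and without Female-Sham (adjusted p up to 0.519). *Ntrk2* also fell in PEP1-like neurons, from 12.3 and 12.9 CPM to 5.38 and 7.13 CPM (log2 -0.98 ± 0.13, adjusted p = 0.00121). There the SGC marker sum was 1501 and 1482 CPM in sham and 440 and 621 CPM in CCI, and its part in the *Ntrk2* difference was not tested. With injury genes taken out of the clustering the value was 0.31 (adjusted p = 0.463). In NF1-like neurons, which held most *Ntrk2*, spared neurons had 358 and 325 CPM against 469 and 466 CPM in sham, a log2 difference of -0.41 ± 0.07 under the limit on fold change.

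**Figure D4:**
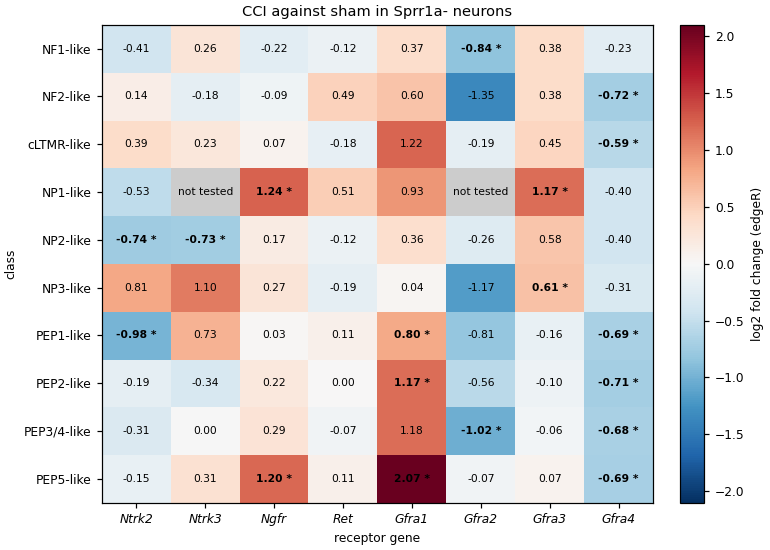
Fitted log2 fold change of each receptor (columns) in Sprr1a- neurons of CCI against sham by class (lines), with red above 0 and blue below. An asterisk marks the 18 called tests, and grey cells were not tested. Gfra4 is below 0 in all 10 classes and called in 6, and Ret is not called in any.

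Most injured neurons lay in the CCI-ind-like clusters, and receptor levels differed between those clusters. In the CCI libraries the cluster led by *Anxa1* had 33.4 and 27.8 CPM of *Gfra1*, the one led by *En1* 75.2 and 74.4 CPM and the one led by *Crh* 39.1 and 38.0 CPM. *Ntrk3* stood out in the cluster led by *Crh*, with 117 and 143 CPM against 13.1 and 14.0 CPM in the *Anxa1* cluster and 3.18 and 3.37 CPM in the *En1* cluster. *Ngfr* was highest of these 3 in the *En1* cluster (80.3 and 76.6 CPM) and lowest in the *Anxa1* cluster (26.7 and 24.8 CPM). *Gfra3* was at 224 and 197 CPM in the *En1* cluster, at 123 and 104 CPM in the *Anxa1* cluster and at 110 and 117 CPM in the *Crh* cluster. *Ret* lay between 238 and 276 CPM in all 3. A further cluster, led by *Ly6a* and left unnamed, had 396 and 340 CPM of *Gfra3*, 377 and 338 CPM of *Ret* and 110 and 118 CPM of *Ngfr*. These levels are a description, since the clusters were made from the same cells.

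**Figure D5:**
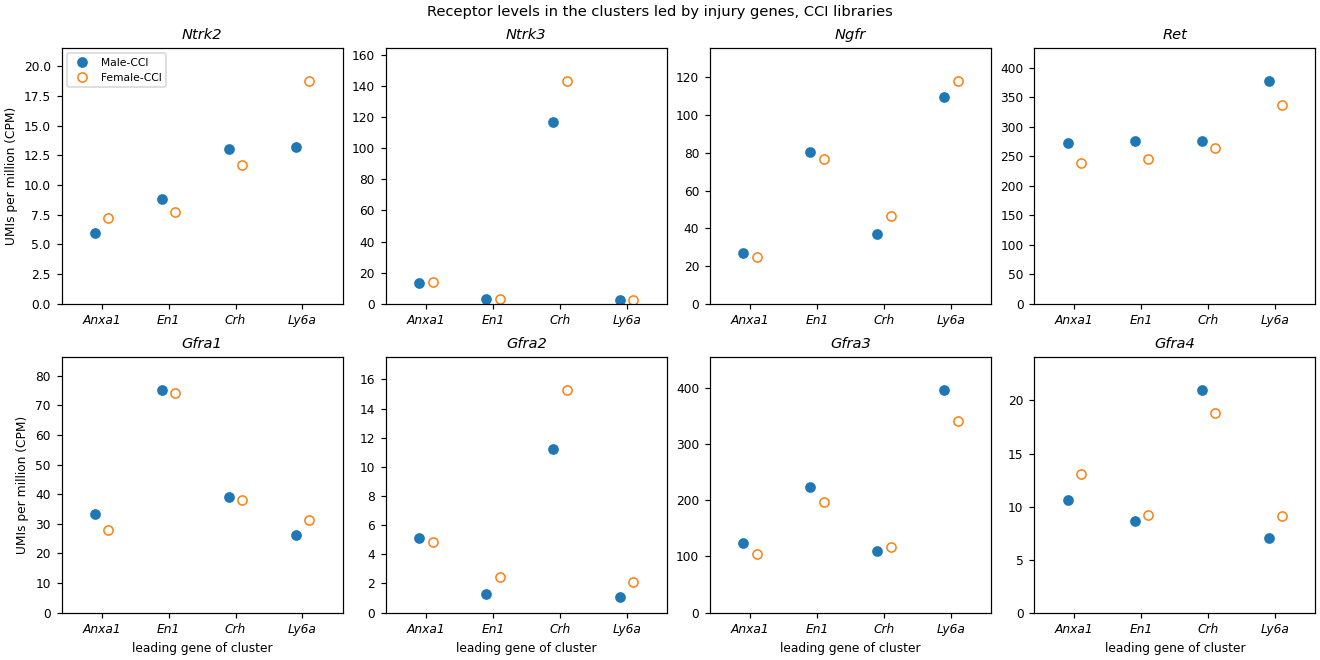
Level of each receptor (CPM) in the CCI libraries for the 3 CCI-ind-like clusters led by Anxa1, En1 and Crh and the unnamed cluster led by Ly6a, with 1 filled point for Male-CCI and 1 open point for Female-CCI. Ntrk3 is high in the Crh cluster, Gfra1 in the En1 cluster and Gfra3 in the Ly6a cluster.

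The other genes of the pathway were followed as a list of 64 ligands, membrane partners, adaptors and brakes. Between CCI and sham over all neurons, 62 were tested and 19 called (12 rose and 7 fell), or 30.6% beside 27.8% of all genes, with a median log2 change of 0.04. The adaptors *Irs2* (log2 2.04 ± 0.04) and *Dok5* (1.75 ± 0.11), both of which dock on activated receptors, rose. The ligands *Nrtn* and *Ntf3*, which encode neurturin and NT-3, fell by 1.29 ± 0.14 and 1.01 ± 0.16, and the adaptor *Frs3* fell by 0.92 ± 0.09 on the log2 scale.

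Between *Sprr1a*+ and *Sprr1a*- neurons of the CCI libraries, 33 of 58 were called (15 rose and 18 fell), or 56.9% beside 45.6% of all genes, with a median of 0.03. *Nrtn* was at 1.41 and 1.34 CPM against 0.216 and 0.174 CPM (log2 -2.63 ± 0.25), so the neurturin gene and its coreceptor gene *Gfra2* were both lower in injured neurons. *Ntf3* was lower by 5.19 ± 0.39 on the log2 scale, from 1.37 and 1.17 CPM to 4 and 1 UMIs. Of the 9 brakes tested 1 rose, *Dusp6* (2.32 ± 0.16), a phosphatase of ERK, and 5 fell, among them *Spry4* (-3.95 ± 0.16), an inhibitor of receptor tyrosine kinase signalling.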

How the data were processed

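The 4 libraries of sorted DRG cells were measured by 10x single-cell RNA sequencing, and the deposited files hold raw UMI counts per gene and cell, which the authors made with Cell Ranger on mm10. The version is 2.1.1 per the labels and 3.0.2 per the matrix header. Cells with at least 1500 genes and at most 10% mitochondrial UMIs were kept. The automatic doublet threshold of scanpy 1.11.5 marked almost no cells, so the highest-scored cells were removed in the number the study removed per library. Cells were integrated and clustered with Seurat 5.3.0 (3000 variable genes, 30 integration and 20 clustering dimensions, resolution 0.8). Counts were summed per library, class and Sprr1a state, with at least 10 cells, and tested with edgeR 4.0.16 (quasi-likelihood, TMM, filter on low counts, R 4.3.3) with Benjamini-Hochberg adjustment over all genes tested. Comparisons within the CCI libraries had the library as a block. Sprr1a+ was a log-normalized value (scale 10000) above 1. Intervals are exact binomial at 95%.

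Receptors, markers and the pathway list were chosen with earlier results of these data known. Genes named from the pathway list were the 3 with the largest rise and fall among those called and moved the same way in both libraries; 1 of them is not reported here. Genes of like pattern were the 3 with the highest r among genes of at least 20 CPM in a class. On simulated data for CCI against sham over all neurons, 88.8% of 2-fold and 99.0% of 4-fold changes were recovered. For injured NP1-like neurons against sham these were 80.4% and 96.9%, and within CCI over all neurons 86.9% and 100%. The simulations changed far fewer genes than were called in the data and drew each gene at the fitted trend of spread. No spared class was simulated. Alternatives were DESeq2 1.42.0, RLE scaling, no filter, sex as a block, each library left out, other Sprr1a limits and other clusterings. Fits without shared barcodes, and of PEP3/4-like neurons without a cluster led in part by Fabp7, were added after seeing the data.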

Additional observations from a re-analysis of the deposited data

Results flagged for a closer look

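Ngfr went in opposite directions in different classes of injured neurons, in every library. Against Sprr1a- sham neurons the log2 change was 2.62 in NP1-like and 2.95 in PEP5-like neurons, and -1.47 and -2.05 in the NF1- and NF2-like classes. Against Sprr1a- neurons of the same CCI libraries it was 1.36 and 1.76 in NP1- and PEP5-like neurons, and -1.24 and -1.96 in NF1- and NF2-like neurons. Both comparisons use the same Sprr1a+ neurons, and the difference between classes was not tested.

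Ntrk2 was abundant in SGC-like cells, which enter none of the comparisons of neurons. Its level there was 922.3 and 833.2 CPM after sham surgery and 695.5 and 674.1 CPM after CCI, male library first.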

How the results depend on the processing

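For the tests over all neurons and the called tests by class, 1154 values were computed under an alternative (1 of them a count). Within CCI, leaving out 1 library left a plain log2 ratio with no test, so only its direction was judged. Of the 1154 values, 1096 kept their direction and, where a test was made, their side of the threshold. Of the rest, 54 lost the call and 4 turned. The 4 were Ntrk2 in spared PEP1-like neurons with injury genes out of the clustering (0.31), Ngfr in spared PEP5-like neurons with doublets kept (-0.32), and, with any Sprr1a UMI as the limit within CCI libraries, Gfra2 in NF1-like (0.18) and Gfra4 in NF2-like neurons (0.044). The cause was not tested. Tests by class that were not called are outside this count, and up to 9 of them in spared neurons, 2 in injured neurons against sham and 3 within CCI gained a call under an alternative. Ret was among them in injured NP1-like neurons against sham, under 6 alternatives, and in NF1-like neurons within CCI, under 8. With any UMI, 3 of 8 calls were made over all neurons and 15 of 29 by class. With the receptors in the clustering, 13 of 16 were made against sham and 12 of 16 within CCI. There Sprr1a+ NP1- and PEP5-like neurons were too few to be fitted. Leaving out 1 library gave 4 calls over all neurons, 15 to 22 in spared and 25 to 26 in injured neurons against sham. With sex as a replicate block these were 4, 27 and 25, and with no replicate block within CCI 7 and 25. The male-minus-female difference correlated between sham and CCI across 8281 genes (r = 0.70). The 2 libraries of a sex come from different mice, so the numbers are not taken as pairs.

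Shares of sham neurons with a UMI, thinned to 5000 and then 2000 UMIs, were 14.5% and 7.66% for Ntrk2, 18.0% and 8.20% for Ntrk3, 35.9% and 20.0% for Ngfr, 56.9% and 32.3% for Ret, 8.25% and 3.96% for Gfra1, 25.3% and 15.3% for Gfra2, 44.0% and 24.8% for Gfra3, and 19.7% and 7.65% for Gfra4. With doublets kept they were 38.4% for Ntrk2 and 69.0% for Ngfr, unthinned.

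Counts of all genes called moved beyond 1.5 times as follows. In spared neurons they went from 387 to between 52 and 782 in NP1-like, 543 to 283 in NP2-like, 321 to 97 in NP3-like, 705 to 385 in PEP1-like, 548 to 177 in PEP2-like, 483 to 155 in PEP3/4-like, 445 to between 179 and 679 in PEP5-like, 133 to between 2 and 359 in NF1-like, 207 to between 36 and 896 in NF2-like and 213 to 33 in cLTMR-like neurons. Within CCI they went from 7400 to 4760 over all neurons, and from 2542 to 977, 5225 to 3158, 4843 to 785 and 3958 to 475 in NP1-, PEP5-, NF1- and NF2-like neurons. Against sham the NF1-like count went from 5504 to 2289.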

Other observations

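Few sham neurons were Sprr1a+, 42 and 144 cells, and they were tested only as part of all sham neurons. Their Ret level was 331 and 328 CPM and their Gfra2 level 7.93 and 9.97 CPM. Gfra1 was at 33.3 and 20.8 CPM in them.

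An unnamed cluster led by Rxfp1 held Ntrk3 at 212, 240, 266 and 242 CPM in the male and female sham and then the male and female CCI libraries. Gfra2 was at 97.8, 101, 79.2 and 64.8 CPM in the same cells.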
